A study of Mus musculus with 9 samples.

Results

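Collagens are proteins of the extracellular matrix whose chains wind around each other in groups to form a helix, and each chain has its own gene. The genes analysed here were all those whose single platform symbol has the form Col, number, a, number. This gave 42 collagen chain genes of the 18193 genes tested, and 3 further chains of that naming form (Col6a6, Col21a1 and Col28a1) were not analysed here. Left ventricular tissue came from male C57BL/6 mice 6 weeks after surgery, 4 samples from mice with transaortic constriction (TAC) and 5 from mice with a sham operation. TAC narrows the aorta so that the left ventricle ejects against a raised pressure, and the submitters used it as a model of heart failure. Each sample was hybridised to an Affymetrix mouse array, which gives 1 value per probe set (a group of probes against a transcript). The values are log2 values from RMA, which corrects background, brings all arrays to the same distribution and combines the probes, so a difference of 1 is a doubling. The age of the mice, any batches and whether each array stands for 1 animal are not given in the sources used here, so p-values cover only the variation among these arrays, which may be technical.

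Fibroblasts make most of the interstitial collagen of the heart. Fibrillar chains form the load-bearing fibrils, fibril-associated collagens with interrupted helices (FACIT) coat those fibrils, type IV chains form the sheet of the basement membrane, and type VIII and type X chains form hexagonal or other networks. Type VI chains form beaded filaments, multiplexins lie at the basement membrane zone, and transmembrane collagens are anchored in the cell surface. Deposition of collagen under pressure overload is a known part of cardiac remodelling.

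Of the 42 chains, 21 were higher in TAC than in sham ventricles and 0 were lower, in a limma test of all genes with Benjamini-Hochberg adjusted p below 0.05. Over all genes tested, 12.8% were higher and 12.3% lower by the same rule. The chains that rose did so by 0.37 to 4.15, with a median of 0.97, whereas the median over all 42 chains was 0.34 and that over all genes tested was -0.0038. A difference of at least 2-fold was found for 10 of the 21 chains, of at least 4-fold for 6 and of at least 8-fold for 4, and 2.18% of all genes were called and at least 2-fold higher. These sizes depend on the probe set: with the mean of each gene's probe sets, 12 of the 21 chains differed by at least 2-fold, 4 by at least 4-fold and 1 (Col8a2) by at least 8-fold. Col8a2 has only 1 probe set, so its value is the same in both settings and was not checked by another. In each of the 21 chains the lowest TAC value lay above the highest sham value. The same held for 22 of the 42 chains in all, the other being Col11a1, and for 13% of all genes. Among the 42 chains, 1 (Col5a3, at its brightest probe set) had every TAC value below every sham value, against 12.2% of all genes. Without adjustment, limma gave 1 lower chain at p below 0.05, again Col5a3, and a fit with a trended, robust variance gave 0 lower after adjustment.

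By type, 5 of 11 fibrillar, 5 of 6 basement membrane, 5 of 9 FACIT, 2 of 3 network, 2 of 5 beaded filament and both multiplexin chains rose. None of the 4 transmembrane chains was called, nor were Col7a1 and Col26a1, which belong to none of these types. The median difference was 0.30 for fibrillar, 0.59 for basement membrane, 0.37 for FACIT, 3.10 for network, 0.12 for transmembrane and 0.17 for beaded filament chains. Of the 18 chains whose mean over all arrays lay above that of the median gene 15 rose, and of the 24 dimmer chains 6 rose, against 17.5% of the brighter and 8.13% of the dimmer genes overall. A rise itself lifts that mean, and divided by the sham mean alone 13 of 16 brighter and 8 of 26 dimmer chains rose. The shares over all genes for that division are not given here. The arrays hold whole tissue, so that more cells of a type and more RNA per cell cannot be told apart.

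**Figure D1:**
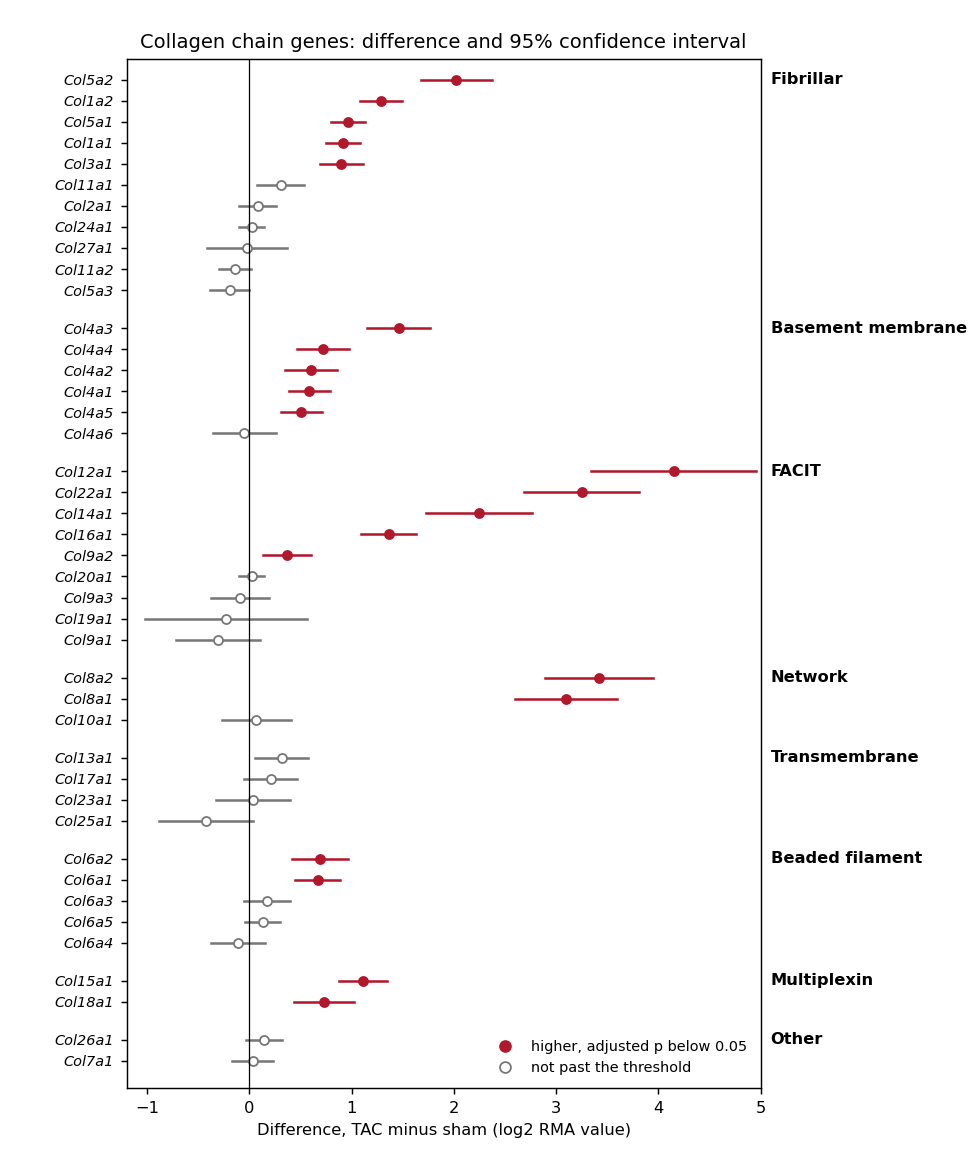
Difference between TAC and sham arrays (log2 RMA value, horizontal axis) for the 42 collagen chain genes, ordered by type, with the 95% confidence interval of the limma fit as a line. Filled points mark the 21 chains that were higher at an adjusted p below 0.05, from 0.37 for Col9a2 to 4.15 for Col12a1, and open points the other 21, which lie between -0.43 and 0.32.

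Some arrays stood apart in ways that touched many chains at once. Pearson correlations across all genes ranged over 0.995 to 0.997 for pairs of TAC arrays, over 0.987 to 0.997 for pairs of sham arrays, and over 0.974 to 0.988 for pairs of 1 array from each group. Over the 21 chains that rose, TAC replicate 4 was the lowest TAC array for 12, whereas sham replicate 2 was the lowest sham array for 17 and sham replicate 5 the highest for 16. Averaged over these chains, TAC replicate 4 lay 0.16 below its group mean, sham replicate 2 lay 0.28 below and sham replicate 5 lay 0.29 above its own. Without sham replicate 2 all 21 chains were still called, with a median difference of 0.93, and Col11a1 and Col13a1 joined them. Without TAC replicate 4 or without sham replicate 5, 20 of the 21 remained, and the chain that lost its call was Col9a2 both times.

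**Figure D2:**
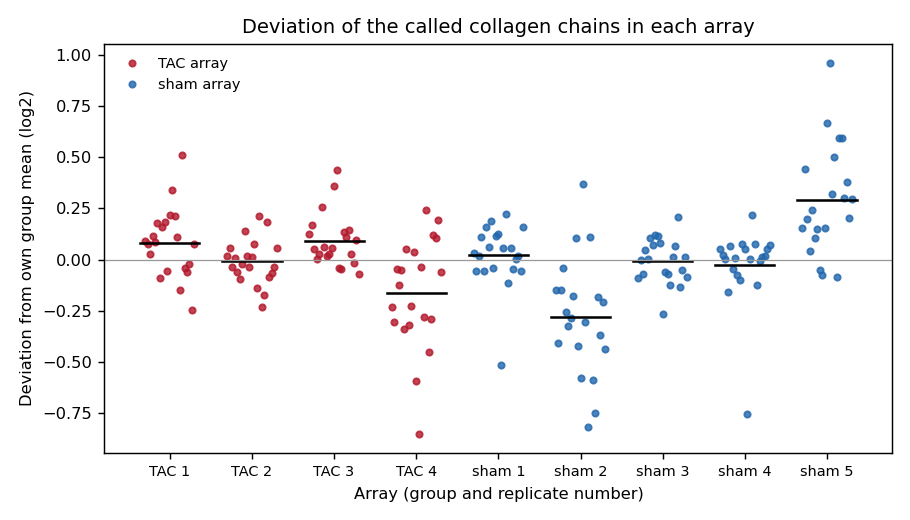
Deviation of each of the 21 called collagen chains from the mean of its own group (log2, vertical axis) in the 4 TAC and 5 sham arrays, with a bar at the mean over the chains. The chains of sham replicate 2 lie mostly below and those of sham replicate 5 mostly above their group mean, with means of -0.28 and 0.29.

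The main fibrillar chains of the heart rose together. Col1a2 and Col1a1 encode the chains of type I collagen, the chief collagen of scar and of the cardiac interstitium. The values of Col1a2 were 12.54, 12.47, 12.57 and 12.22 in the TAC arrays, against 11.20, 11.02, 11.08, 11.22 and 11.32 in the sham arrays. Those of Col1a1 were 12.41, 12.30, 12.30 and 12.17 in the TAC arrays, against 11.49, 11.34, 11.43, 11.22 and 11.42 in the sham arrays. The groups did not overlap for either gene, and TAC replicate 4 was the lowest TAC array in both. Col1a2 rose by 1.28 (SE 0.09, adjusted p = 1.03e-05), or 2.43-fold, and Col1a1 by 0.92 (SE 0.08, adjusted p = 2.05e-05). Col3a1, whose product forms fibrils with type I collagen in compliant tissue, averaged 13.28 ± 0.07 in TAC and 12.38 ± 0.18 in sham arrays (SD, n = 4 and 5) and rose by 0.90 (SE 0.09, adjusted p = 8.99e-05).

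Type V collagen sits in the core of type I fibrils and limits their width. Its chain gene Col5a2 had values of 12.01, 11.99, 12.10 and 11.63 in the TAC arrays, against 9.85, 9.50, 9.90, 9.93 and 10.35 in the sham arrays. Every TAC array was thus at least a full log2 unit above every sham array, and the difference was 2.03 (SE 0.16, adjusted p = 1.53e-05), or 4.07-fold. The partner chain Col5a1 gave 10.21, 10.14, 10.23 and 10.13 in the TAC arrays, against 9.23, 9.07, 9.14, 9.21 and 9.41 in the sham arrays. The TAC arrays of Col5a1 lay close together, above all sham arrays, and it rose by 0.97 (SE 0.08, adjusted p = 1.65e-05). The third type V gene, Col5a3, averaged 7.80 ± 0.12 in TAC and 8.0 ± 0.13 in sham arrays, and its difference of -0.19 (SE 0.09, adjusted p = 0.135) did not pass in limma even though the groups did not overlap. The other, much dimmer probe set of Col5a3 differed by 0.18, and the mean of its probe sets by -0.0087 (limma adjusted p = 0.963).

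The other fibrillar chains did not pass the threshold at their brightest probe set. Col11a1, a relative of type V known from cartilage, averaged 6.46 ± 0.07 in TAC and 6.15 ± 0.21 in sham arrays, with a difference of 0.30 (SE 0.11, adjusted p = 0.0597), and Col11a2 differed by -0.14 (95% confidence interval -0.30 to 0.01). Col2a1, the main collagen of cartilage, differed by 0.08 (95% confidence interval -0.10 to 0.26). Col24a1 differed by 0.02 (95% confidence interval -0.11 to 0.15) and Col27a1 by -0.02 (95% confidence interval -0.42 to 0.37). The intervals of these chains, except that of Col11a1, include 0. Without sham replicate 2, Col11a1 was called (0.35, adjusted p = 0.0347).

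**Figure D3:**
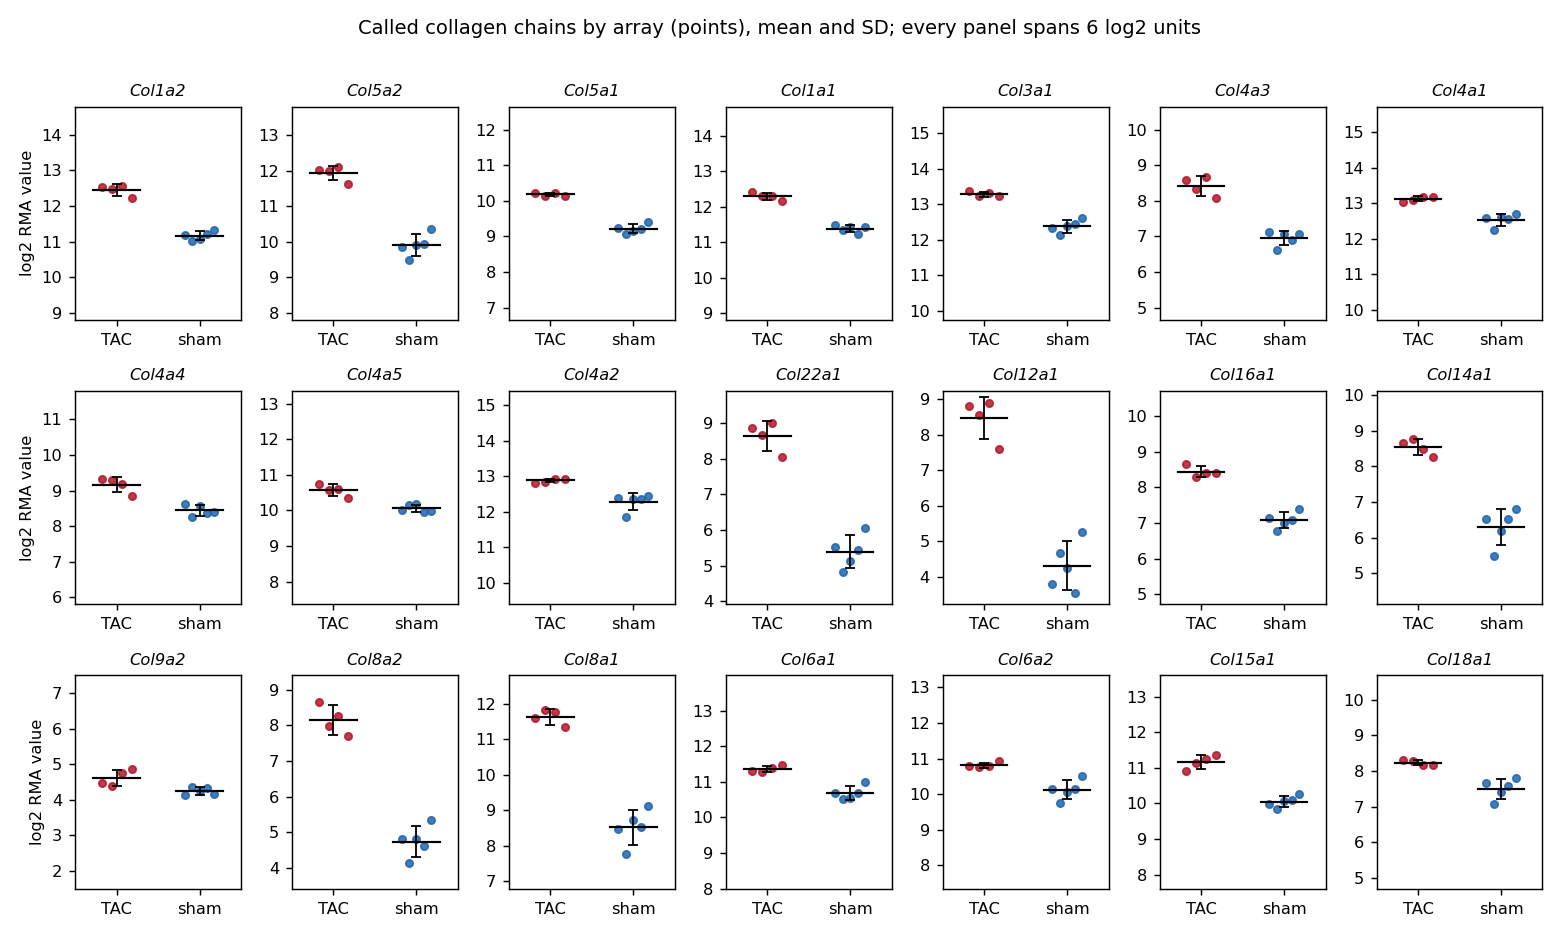
Values of the 21 called collagen chains (log2 RMA value, vertical axis) in each TAC and sham array, as points, with the group mean as a bar and the SD as an error bar (n = 4 and 5). All panels span the same range of 6 log2 units, so the gaps can be compared by eye, and in every panel all TAC points lie above all sham points.

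Of the 6 basement membrane chains 5 rose, by 0.51 to 1.46. Type IV collagen occurs as a widespread form built from the products of Col4a1 and Col4a2 and as a form built from those of Col4a3, Col4a4 and Col4a5, which is best known from the filter of the kidney and from Alport syndrome. Col4a3 had values of 8.59, 8.32, 8.67 and 8.07 in the TAC arrays, against 7.12, 6.63, 7.06, 6.91 and 7.06 in the sham arrays. It rose by 1.46 (SE 0.14, adjusted p = 4.70e-05), or 2.75-fold, the largest difference among the type IV genes. Col4a4 gave 9.33, 9.31, 9.19 and 8.85 in the TAC arrays, against 8.64, 8.27, 8.57, 8.37 and 8.40 in the sham arrays. Its groups came close to each other, with TAC replicate 4 just above sham replicate 1, and it rose by 0.72 (SE 0.11, adjusted p = 0.00115). For Col4a5 the values were 10.76, 10.59, 10.60 and 10.34 in the TAC arrays, against 10.02, 10.17, 10.18, 9.96 and 9.99 in the sham arrays. TAC replicate 4 was again the lowest TAC array, and Col4a5 rose by 0.51 (SE 0.09, adjusted p = 0.00234).

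Col4a1 was measured at 13.03, 13.10, 13.19 and 13.18 in the TAC arrays, against 12.60, 12.25, 12.61, 12.54 and 12.69 in the sham arrays. Sham replicate 2 was the lowest of all 9 arrays, and Col4a1 rose by 0.59 (SE 0.09, adjusted p = 0.001), or 1.5-fold. Col4a2 averaged 12.88 ± 0.06 in TAC and 12.28 ± 0.24 in sham arrays and rose by 0.60 (SE 0.11, adjusted p = 0.00344). Col4a6 averaged 5.15 ± 0.26 in TAC and 5.20 ± 0.20 in sham arrays, a difference of -0.05 (95% confidence interval -0.35 to 0.26). When tested against a difference of 1.5-fold, Col4a3 was the only basement membrane chain of the 6 that was called. Among the 8 endothelial markers, genes of a cell type that rests on basement membrane, 0 were higher in limma and 1 (Kdr) was lower. Of all genes tested, 12.8% were higher and 12.3% lower, so these counts in 8 genes lie near the shares over all genes. At an unadjusted p below 0.05, 0 of the 8 were higher. In 0 of the 8 every TAC value lay above every sham value, against 13% of all genes.

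Col4a1 and Col4a2 lie next to each other on opposite strands. Their promoter windows are shown because both genes rose by nearly the same amount at their brightest probe sets (0.59 and 0.60). The second probe set of Col4a1 rose by 0.80. Whether the neighbourhood bears on the rise was not tested. The windows are RefSeq sequences of the build GRCm38.p6 and run from 250 bases before to 50 bases after the annotated transcript start. The annotated starts of the pair are 21 bases apart and the windows share 78 bases. Capitals mark matches, on either strand, to GGGCGG (letters found in Sp1 sites), to CCAAT (the CCAAT box), to TATAAA (the TATA box) or to TGANTCA (letters of AP-1 sites). Where capitals adjoin, matches overlap.
Col4a1, chr8:11312777-11313076, minus strand: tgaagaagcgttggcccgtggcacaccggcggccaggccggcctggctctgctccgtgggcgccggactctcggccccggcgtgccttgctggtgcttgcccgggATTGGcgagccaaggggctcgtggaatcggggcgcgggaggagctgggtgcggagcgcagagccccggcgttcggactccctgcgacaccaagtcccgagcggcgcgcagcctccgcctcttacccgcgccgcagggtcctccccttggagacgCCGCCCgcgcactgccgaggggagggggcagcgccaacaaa
Col4a2, chr8:11312555-11312854, plus strand: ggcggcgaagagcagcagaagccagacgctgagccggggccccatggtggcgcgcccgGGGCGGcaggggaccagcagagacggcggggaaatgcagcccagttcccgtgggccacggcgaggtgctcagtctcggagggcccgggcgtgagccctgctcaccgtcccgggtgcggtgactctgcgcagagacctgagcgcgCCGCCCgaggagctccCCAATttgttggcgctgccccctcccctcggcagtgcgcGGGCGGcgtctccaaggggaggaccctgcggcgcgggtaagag

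Of the 42 chains, 33 had a promoter window in the reference table, with 36 windows in all. The letters GGGCGG occurred in 12 of 17 windows (70.6%) of chains that rose, in 10 of 19 windows (52.6%) of chains not called, and in 35.7% of all 32851 windows of the table. CCAAT occurred in 35.3% and 36.8% of them and in 37.4% of all windows. TATAAA occurred in 5.9% and 21.1%, against 13.6% of all windows, and TGANTCA in 5.9% and 0.0%, against 7.8%. These are matches of letters and no test was made of them.

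Collagen genes that neighbour each other on the chromosome were compared next. By the order of protein-coding genes in the reference table, 8 pairs of collagen chains are direct neighbours, and both members were measured in 7. Both members rose in 4 pairs, namely Col3a1 with Col5a2, Col4a3 with Col4a4, Col6a1 with Col6a2, and Col4a1 with Col4a2. In 1 pair only Col4a5 was called (0.51) and not its neighbour Col4a6 (-0.05). Their windows are 842 bases apart. In the other 2 pairs, Col9a1 with Col19a1 and Col6a4 with Col6a5, neither member was called.

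Of the 9 FACIT chains 5 rose, and at the brightest probe sets Col12a1 had the largest difference of the 42 chains. With the mean of probe sets the largest was that of the network chain Col8a2, at 3.42, which has 1 probe set and so nothing to average. Col12a1, whose product lies on fibrils of tendon and other tissues under tension, had values of 8.80, 8.54, 8.90 and 7.61 in the TAC arrays, against 3.79, 4.68, 4.25, 3.56 and 5.28 in the sham arrays. Every TAC array was above every sham array, and the spread within groups was wide (SD 0.59 in TAC and 0.69 in sham arrays). The difference was 4.15 (SE 0.36, adjusted p = 2.98e-05). This rests on 1 of 4 probe sets, which is the brightest only through the TAC arrays: it averaged 8.46 in TAC and 4.31 in sham arrays, where probe sets at 5.35 and 5.1 were brighter. The other 3 differed by -0.24, -0.03 and 0.23 with adjusted p of 0.473, 0.911 and 0.323 over all probe sets. With the mean of its probe sets Col12a1 rose by 1.03.

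Col22a1, known from tissue junctions such as that of muscle and tendon, gave 8.86, 8.66, 9.01 and 8.05 in the TAC arrays, against 5.52, 4.81, 5.12, 5.44 and 6.06 in the sham arrays. The groups were far apart, and TAC replicate 4 and sham replicate 2 were the lowest of their groups. At this probe set it rose by 3.25 (SE 0.25, adjusted p = 1.58e-05), or 9.53-fold. Of its other 2 probe sets 1 rose by 3.33 and 1 by 0.50, the last being the brightest in the sham arrays (5.88, where the chosen one averaged 5.39), and the mean of the 3 rose by 2.36, or 5.14-fold. Among the chains that rose, Col12a1 and Col22a1 are the 2 whose chosen probe set was not the brightest in sham arrays, which was looked at after the results were seen. Col14a1, a fibril-surface collagen related to Col12a1, gave 8.66, 8.76, 8.50 and 8.27 in the TAC arrays, against 6.52, 5.48, 6.18, 6.52 and 6.80 in the sham arrays. It rose by 2.248 (SE 0.23, adjusted p = 8.10e-05), with sham replicate 2 well below the other sham arrays. Col16a1 had values of 8.65, 8.30, 8.40 and 8.40 in the TAC arrays, against 7.13, 6.77, 7.0, 7.07 and 7.39 in the sham arrays. It rose by 1.36 (SE 0.12, adjusted p = 3.21e-05), and the lowest TAC array was well above the highest sham array.

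The genes of collagen IX, a cartilage collagen, and Col20a1 were dimmer than the median gene. Col9a2 averaged 4.62 ± 0.23 in TAC and 4.25 ± 0.10 in sham arrays, with the lowest TAC array at 4.39 and the highest sham array at 4.36, and the difference was 0.37 (SE 0.11, adjusted p = 0.0266). That call ended without any 1 of 5 arrays, namely TAC replicates 3 and 4 and sham replicates 1, 3 and 5, with adjusted p of 0.051 to 0.0853, and also when arrays were centred on their medians (adjusted p = 0.069). Col9a1 differed by -0.31 (95% confidence interval -0.72 to 0.11) and Col9a3 by -0.09 (95% confidence interval -0.37 to 0.20). Col9a1 was called lower without sham replicate 1 (-0.48, adjusted p = 0.0102), which is the only lower call of any chain under the alternatives run. Col19a1 differed by -0.23 (95% confidence interval -1.03 to 0.56) and Col20a1 by 0.02 (95% confidence interval -0.10 to 0.14).

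Both type VIII genes rose, by more than 8-fold at their brightest probe sets. Type VIII collagen is a short-chain network collagen made by vessel walls and by the cornea. Col8a1 had values of 11.58, 11.81, 11.77 and 11.33 in the TAC arrays, against 8.48, 7.77, 8.74, 8.52 and 9.12 in the sham arrays. Col8a2 gave 8.66, 7.97, 8.26 and 7.70 in the TAC arrays, against 4.79, 4.14, 4.80, 4.61 and 5.33 in the sham arrays. In both genes sham replicate 2 was lowest and sham replicate 5 highest among the sham arrays, and the gap to the TAC arrays was wider than the range of either group. Col8a1 rose by 3.10 (SE 0.23, adjusted p = 1.08e-05), or 8.56-fold, and Col8a2 by 3.42 (SE 0.24, adjusted p = 8.80e-06), or 10.7-fold. The other 2 probe sets of Col8a1 rose by 1.96 and 2.68, and the mean of its 3 probe sets by 2.58, or 5.98-fold. Col10a1, the network collagen of growth plate cartilage, differed by 0.07 (95% confidence interval -0.27 to 0.40).

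The promoter windows of the type VIII genes are shown because both chains of this collagen rose. They lie on different chromosomes, and capitals mark the same letters as above. Each holds GGGCGG several times, read on one strand or the other, and none of the other 3 motifs.
Col8a1, chr16:57754688-57754987, minus strand: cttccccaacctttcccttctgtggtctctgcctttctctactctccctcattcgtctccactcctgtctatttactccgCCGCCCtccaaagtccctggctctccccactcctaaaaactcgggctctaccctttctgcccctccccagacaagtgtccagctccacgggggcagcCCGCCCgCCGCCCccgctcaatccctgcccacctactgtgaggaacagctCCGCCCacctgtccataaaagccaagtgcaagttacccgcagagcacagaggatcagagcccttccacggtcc
Col8a2, chr4:126286544-126286843, plus strand: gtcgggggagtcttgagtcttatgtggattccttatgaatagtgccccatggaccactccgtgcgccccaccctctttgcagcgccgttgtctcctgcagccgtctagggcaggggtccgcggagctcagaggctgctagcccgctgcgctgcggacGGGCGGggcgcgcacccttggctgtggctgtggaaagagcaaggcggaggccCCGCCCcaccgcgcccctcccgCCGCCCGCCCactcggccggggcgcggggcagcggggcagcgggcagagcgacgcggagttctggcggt

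Type VI collagen forms beaded filaments around cells, and loss of its chains causes muscular dystrophies. Col6a1 had values of 11.30, 11.27, 11.38 and 11.48 in the TAC arrays, against 10.69, 10.51, 10.56, 10.70 and 10.99 in the sham arrays. Col6a2 gave 10.79, 10.75, 10.80 and 10.92 in the TAC arrays, against 10.14, 9.76, 10.08, 10.14 and 10.50 in the sham arrays. In both, TAC replicate 4 was the highest array and sham replicate 5 the highest sham array. Col6a1 rose by 0.67 (SE 0.10, adjusted p = 0.000804) and Col6a2 by 0.69 (SE 0.13, adjusted p = 0.00259). Col6a3, the chain that joins them in the common form of type VI, averaged 9.35 ± 0.17 in TAC and 9.18 ± 0.15 in sham arrays, a difference of 0.17 (95% confidence interval -0.05 to 0.40) that did not pass. Col6a4 differed by -0.11 (95% confidence interval -0.37 to 0.15) and Col6a5 by 0.13 (95% confidence interval -0.04 to 0.30). Tested against a 1.5-fold difference, 0 of the 5 type VI chains were called in limma.

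Both multiplexin genes rose. Their products carry long sugar chains, and the end of the Col18a1 product is released as endostatin. Col15a1 had values of 10.91, 11.13, 11.26 and 11.35 in the TAC arrays, against 9.99, 9.84, 10.06, 10.10 and 10.25 in the sham arrays. It rose by 1.11 (SE 0.11, adjusted p = 4.86e-05), or 2.16-fold, with all TAC arrays well above the sham arrays. Col18a1 gave 8.31, 8.29, 8.16 and 8.17 in the TAC arrays, against 7.66, 7.06, 7.41, 7.57 and 7.80 in the sham arrays. It rose by 0.73 (SE 0.13, adjusted p = 0.0025), and sham replicate 2 was the lowest array.

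The 4 transmembrane genes were all dimmer than the median gene, and none was called in limma. Col13a1, known from the neuromuscular junction, averaged 6.40 ± 0.10 in TAC and 6.08 ± 0.23 in sham arrays, a difference of 0.32 (SE 0.12, adjusted p = 0.0727). Sham replicate 2, at 6.47, lay within its TAC range, and without that array the difference was 0.41 (adjusted p = 0.00286). Col25a1, a neuronal collagen, differed by -0.43 (95% confidence interval -0.88 to 0.03), Col17a1, known from attachment of skin epithelium, by 0.21 (95% confidence interval -0.05 to 0.47), and Col23a1 by 0.03 (95% confidence interval -0.32 to 0.39). At an unadjusted p below 0.05, 1 of the 4 (Col13a1) was higher in limma, and with the trended, robust variance 0 were called. Col7a1, the anchoring fibril collagen of skin, differed by 0.03 (95% confidence interval -0.17 to 0.23) and Col26a1 by 0.14 (95% confidence interval -0.04 to 0.32).

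Other probe sets of the same genes were used as a check. The 42 chains had 82 probe sets, and 27 chains had several. Adjusted over all probe sets, 11.0% of all named probe sets were higher and 9.78% lower. Of the 23 other probe sets of chains that rose, 19 were higher and 4 were not called, namely 3 of Col12a1 and 1 of Col14a1. With the mean of its 3 probe sets Col14a1 rose by 1.30. Of the 17 other probe sets of chains not called, 2 were higher. The dimmer probe set of Col27a1 was higher by 0.89 (adjusted p over probe sets = 0.00953), while the brightest differed by -0.02. That of Col11a1 was higher by 0.36 (adjusted p over probe sets = 0.0400). Among all 82 probe sets 0 were lower, also at an unadjusted p below 0.05 in the limma fit over all probe sets. The brightest probe set of Col5a3 had an unadjusted limma p of 0.052 in that fit and of 0.0477 in the fit over genes. Both p-values come from the same array values.

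For several bright chains the size of the difference depended on the probe set. The dimmer probe set was higher by 1.53 for Col1a1, where the brightest differed by 0.92. The corresponding values were 1.77 and 1.28 for Col1a2, 1.39 and 0.90 for Col3a1, 2.58 and 2.03 for Col5a2, and 0.80 and 0.59 for Col4a1, taking the second brightest probe set each time. The brightest probe set had the larger difference for Col8a1 (3.10, against 1.96 for the second brightest), Col14a1 and Col5a1, among others. In all, the second brightest probe set gave the larger difference in 8 of the 15 chains that rose and have several.

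**Figure D4:**
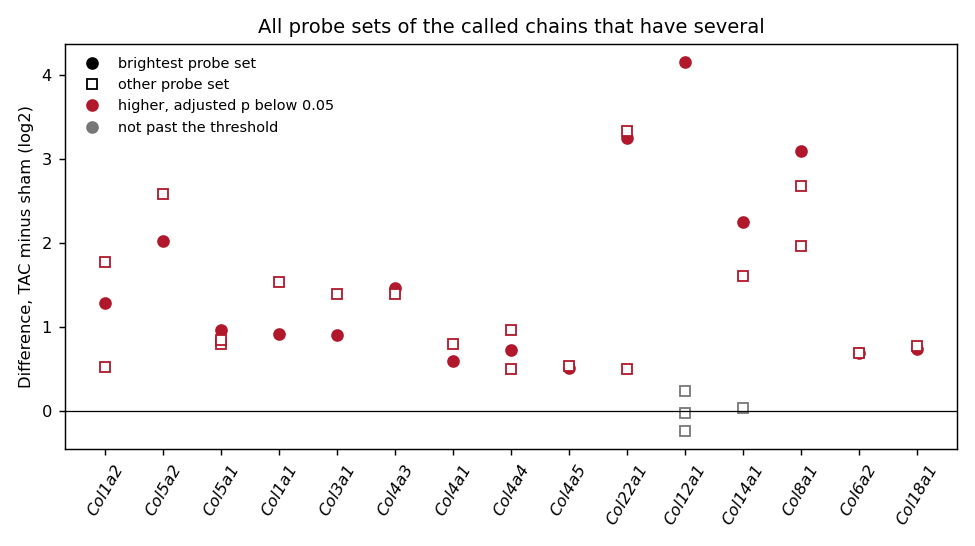
Difference between TAC and sham arrays (log2, vertical axis) at every probe set of the 15 called chains with several probe sets. Circles are the brightest probe set of a gene and open squares its others; red marks an adjusted p below 0.05 over all probe sets. All other probe sets of Col12a1, at -0.24 to 0.23, lie far from its brightest one at 4.15.

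Whether partner chains changed by the same amount was tested within each array. The value used was the log2 difference between the brightest probe sets of both chains. It compares changes at these probe sets and says nothing of the relative levels of the chains. Probe sets of 1 gene also changed by unequal amounts, such as 0.92 and 1.53 for Col1a1, and the part of this in the pairs was not tested. There were 9 pairs. The arrays can be divided in 126 ways, and an exact permutation test, two-sided, used all of them, so that p cannot fall below 0.0159, with Benjamini-Hochberg adjustment over the pairs. In 5 pairs the responses differed at the brightest probe sets. Col5a1 minus Col5a2 averaged -1.75 ± 0.18 in TAC and -0.69 ± 0.19 in sham arrays, so the responses differed by -1.06 (SE 0.12, exact permutation p = 0.0159, adjusted 0.0286). Col4a3 minus Col4a4 averaged -0.76 ± 0.19 in TAC and -1.49 ± 0.11 in sham arrays, a difference of 0.74 (SE 0.11, exact permutation p = 0.0159, adjusted 0.0286). Across the forms of type IV collagen, the response of Col4a1 minus that of Col4a3 was -0.87 (SE 0.15, exact permutation p = 0.0159, adjusted 0.0286). For that pair the adjusted p was 0.0571 with the mean of probe sets.

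Col6a1 minus Col6a3 averaged 2.01 ± 0.08 in TAC and 1.51 ± 0.06 in sham arrays, a difference of 0.49 (SE 0.05, exact permutation p = 0.0159, adjusted 0.0286). Both genes have 1 probe set, so this difference could not be checked at another. The groups did not overlap, and the values of all 4 TAC arrays lay above those of the 5 sham arrays. For Col1a1 and Col1a2 the result turned on the probe set. At the brightest ones the responses differed by -0.37 (SE 0.08, exact permutation p = 0.0159, adjusted 0.0286), and with the mean of probe sets by 0.03 (adjusted exact p = 0.75).

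In the other 4 pairs no difference passed. The response of Col4a1 minus that of Col4a2 was -0.01 (SE 0.04, exact permutation p = 1, adjusted 1), and for Col6a1 and Col6a2 it was -0.02 (SE 0.05, exact permutation p = 0.873, adjusted 1). For Col1a1 and Col3a1 it was 0.02 (SE 0.10, exact permutation p = 0.889, adjusted 1). Type VIII gave -0.32 (SE 0.21, exact permutation p = 0.127, adjusted 0.19), with overlap between the groups, but with the mean of probe sets the responses of Col8a1 and Col8a2 differed by -0.84 (adjusted exact p = 0.0357). For Col4a1 and Col4a2 the mean of probe sets gave 0.093 (adjusted exact p = 0.0714). A p above the threshold does not show that 2 chains responded alike.

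**Figure D5:**
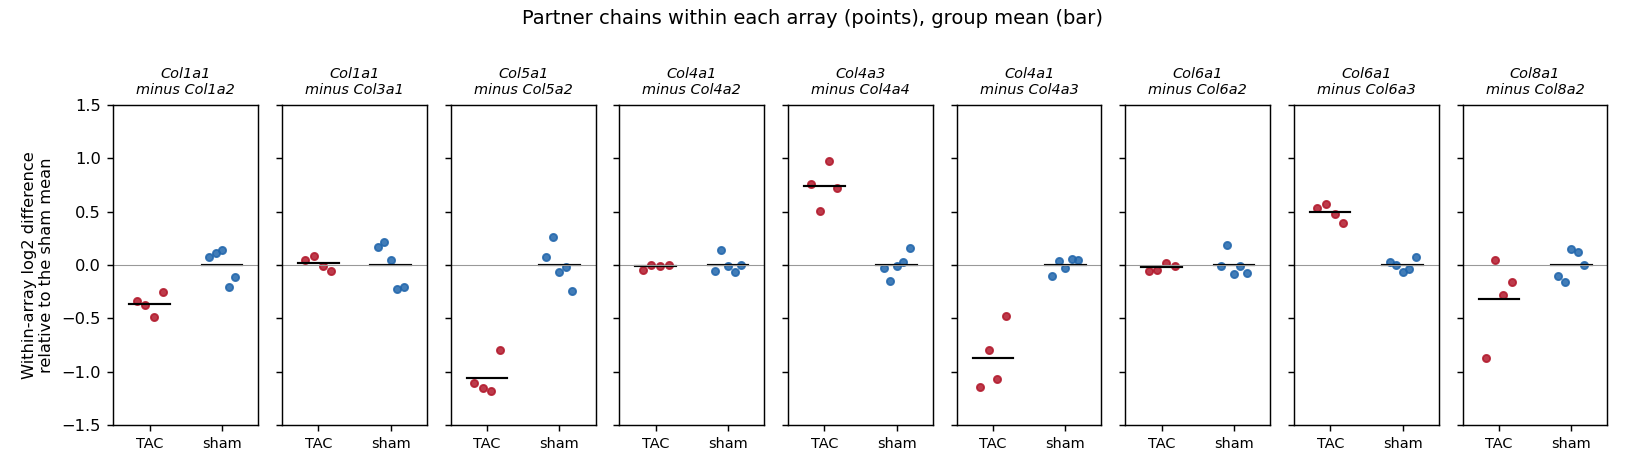
Log2 difference between the partner chains named above each panel within each array, relative to the mean of the sham arrays (vertical axis), for TAC and sham arrays, with the group mean as a bar. Groups are separate for 5 pairs, among them Col5a1 and Col5a2, and overlap for Col1a1 and Col3a1, Col4a1 and Col4a2, Col6a1 and Col6a2, and Col8a1 and Col8a2.

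Genes that make, arrange and remove collagen were counted by the same limma test, by which 12.8% of all genes rose and 12.3% fell. Of 10 measured genes of procollagen processing and crosslinking 6 rose and 1 fell. The crosslinking oxidase gene Lox rose by 3.27 (SE 0.19), Loxl1 by 1.29 (SE 0.10) and Loxl3 by 2.15 (SE 0.20), and Adamts3, a protease that trims procollagen, fell by 0.70. Of 21 genes of hydroxylation, folding and secretion 5 rose and 1 fell. The prolyl hydroxylase genes P3h2 and P3h3 rose by 1.74 (SE 0.12) and 0.88 (SE 0.12) and P4hb, a subunit of another prolyl hydroxylase, by 0.33 (SE 0.06). P3h4, a relative of the P3h enzymes, fell by 0.93. The other 2 that rose were P3h1 (0.48) and P4ha1 (0.72).

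Of 15 fibril organisers 11 rose and 1 fell, where 12.8% of all genes rose and 12.3% fell. The proteoglycan gene Prelp rose by 1.42 (SE 0.10), Comp by 4.53 (SE 0.36) and periostin (Postn) by 3.28 (SE 0.29), while Thbs2 fell by 0.54. Of 9 collagen receptor genes 4 rose and 0 fell in limma, also 0 at an unadjusted p below 0.05. The uptake receptor gene Mrc2 rose by 1.42 (SE 0.12), and the discoidin receptor genes Ddr2 and Ddr1 by 0.47 (SE 0.08) and 0.56 (SE 0.10), and Lair1, an inhibitory collagen receptor of immune cells, by 1.12 (SE 0.28). Of 12 genes of collagen breakdown and its inhibitors 7 rose and 1 fell. The gelatinase gene Mmp2 rose by 1.09 (SE 0.10) and the inhibitor genes Timp1 and Timp2 by 3.82 (SE 0.37) and 0.56 (SE 0.06), while Timp4 fell by 1.08. The list medians were 0.95 for processing, 0.25 for hydroxylation and folding, 1.11 for organisers, 0.17 for receptors and 0.25 for breakdown.

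Markers of cell types moved beside the chains in part. The fibroblast lists share genes with the lists above, so their counts are not separate. Postn, Lum and Dpt are also among the fibril organisers, and Fap is also among the genes of collagen breakdown. Over all genes 12.8% rose and 12.3% fell, so a count of 0 or 1 in a list of 8 lies near those shares. Cardiomyocyte markers were bright on every array, with a list mean of 14.01 to 14.03 in TAC and 14.06 to 14.07 in sham arrays, and of 8 such markers 0 rose and 1 (Tnni3) fell in limma, with 1 higher at an unadjusted p below 0.05. Of 8 markers of activated fibroblasts 7 rose and 1 (Acta2) fell, and the list mean was 10.42 to 10.82 in TAC and 8.48 to 9.11 in sham arrays. Of 8 markers of resting fibroblasts 3 rose (Mfap5, Pi16 and Lum) and 1 fell (Scara5), with a list mean of 10.75 to 11.02 in TAC and 10.42 to 10.70 in sham arrays. Among them Pdgfra, which marks fibroblasts in general, differed by 0.04 (95% confidence interval -0.10 to 0.18) and Tcf21 by 0.13 (-0.17 to 0.43).

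Of 8 macrophage markers 6 rose and 0 fell in limma, with 1 lower at an unadjusted p below 0.05 and a list mean of 9.85 to 9.96 in TAC and 9.0 to 9.47 in sham arrays. Of 7 markers of cartilage and tendon 5 rose (Tnmd, Scx, Acan, Sox9 and Chad), with a list mean of 6.74 to 6.88 in TAC and 5.74 to 6.12 in sham arrays, and 6 of the 7 were dimmer than the median gene. Of 8 smooth muscle and pericyte markers 1 rose (Tagln) and 3 fell (Abcc9, Kcnj8 and Myh11), where 12.8% of all genes rose and 12.3% fell. Their list mean was 9.74 to 9.98 in TAC and 9.78 to 10.04 in sham arrays. Endothelial markers averaged 10.17 to 10.39 in TAC and 10.13 to 10.53 in sham arrays. Of 6 epicardial markers 0 were called in limma, with 1 higher at an unadjusted p below 0.05, and of 4 Schwann cell markers 1 (Gfra3) fell. Sham replicate 2 had the lowest list mean of the sham arrays for markers of activated and resting fibroblasts, endothelium, smooth muscle and macrophages, as for most chains that rose. For cartilage and tendon markers it had the highest (6.12). For cardiomyocyte, Schwann cell and epicardial markers it was not the lowest. The part of cell numbers in the differences of the chains was not tested.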

How the data were processed

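Per the labels, RNA from left ventricular tissue was isolated with Trizol, labelled with biotin and hybridised to Affymetrix arrays. The deposited values are on the log2 scale, and the submitters' processing notes name RMA as the method; its version and software are not given in the sources used here. All 9 arrays held the same sorted values, with a median of 6.5661, so a general change of RNA cannot be seen. Of 45101 probe sets in the table, 64 are controls. The platform annotation gave 1 symbol to 34945 and several to 932, and 9160 had no symbol. By gene ID 34741 matched the reference gene table and no symbol changed. Each of the 18193 genes was represented by its brightest probe set, by the mean over all arrays, without a filter on dim genes. The number of arrays limits the precision. Replicates were numbered by accession order, which pairs nothing.

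TAC minus sham was tested in R 4.3.3 with the package limma 3.58.1 (functions lmFit then eBayes, no covariate, two-sided), with adjustment over all genes and calls at an adjusted p below 0.05. Pairs of chains were compared with exact permutation tests in scipy 1.17.1. With the variances of these data simulated for 18193 genes, the TAC minus sham fit recovered 65% of the log2 changes of size 0.5, 98.8% of those of size 1 and 100% of those of size 2. Far fewer genes were given a change in the simulation than were called in these arrays, and the adjustment depends on that share. Whether the fit recovers the same shares in the measured arrays was not tested. The members, types, lists and tests were chosen with earlier results of these data known. Values in every array are given for up to 4 called chains of a type with the smallest p and for lower ones, and up to 3 called genes of a list per direction are named; other members are given by differences. P3h1, P4ha1, Lair1 and the single markers named beside counts were chosen after their values were seen. Alternatives were the mean of probe sets, probe sets below 13, all probe sets, genes above the median gene, trend and robust fitting, array weights, centring, cyclic loess, a 1.5-fold threshold, a stricter adjusted p of 0.01 and the omission of each array in turn.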

Additional observations from a re-analysis of the deposited data

Results flagged for a closer look

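In 84 groups of values (42 chains in TAC and in sham arrays) 5 held a value set apart from the others of its group by Dixon's criterion, and chance alone marks about 5% of groups. In TAC arrays this was Col13a1 in replicate 4, at 6.55 with the nearest other value at 6.36. In sham arrays, Col5a3 in replicate 1 was at 8.23 (nearest 7.95) and Col2a1 in replicate 1 at 4.82 (nearest 5.11). Col4a2 in sham replicate 2 was at 11.85, below the next at 12.35, and Col4a6 in sham replicate 5 was at 5.55, above the next at 5.17. Of these chains Col4a2 is the only one that was called, and it was still called without sham replicate 2.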

How the results depend on the processing

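Of 19 alternatives, 9 left out 1 array. Of the 21 chains that rose, 12 were called under every alternative that tested them and 20 without each array in turn. Leaving out 1 array gave 20 to 23 higher and 0 to 1 lower chains, and a median difference over all chains of 0.31 to 0.41. It gave 5 to 6 higher fibrillar, 4 to 5 FACIT and 0 to 1 transmembrane chains, while 5 basement membrane, 2 network, 2 beaded filament and 2 multiplexin chains stayed higher and 0 of the others were. Against a 1.5-fold threshold 12 chains were higher, with 1 basement membrane, 0 beaded filament and 1 multiplexin chain. With only genes above the median gene, 18 chains were tested, their median was 0.73, and 1 FACIT and 1 network chain were higher, since dim chains are left out. Array weights gave 23 higher chains, adding Col11a1 (0.28, adjusted p = 0.034) and 1 transmembrane chain, Col13a1. The mean of probe sets also gave 23, adding Col11a1 (0.33, adjusted p = 0.0226) and Col27a1, so 7 of 11 fibrillar chains were higher. With the mean of probe sets Col27a1 was higher by 0.43 (adjusted p = 0.012), against -0.02 at its brightest probe set, and the cause was not tested. With the same setting the pair difference was 0.034 for Col1a1 and Col1a2, opposite in sign to the main value, 0.093 for Col4a1 and Col4a2, -0.73 for Col4a1 and Col4a3, and -0.84 for Col8a1 and Col8a2; the cause was not tested. Without 1 array the pair differences were -0.42 to -0.32 for Col1a1 and Col1a2, -0.038 to 0.071 for Col1a1 and Col3a1, -1.15 to -0.99 for Col5a1 and Col5a2, -0.029 to 0.022 for Col4a1 and Col4a2, 0.66 to 0.82 for Col4a3 and Col4a4, -1.003 to -0.782 for Col4a1 and Col4a3, -0.044 to 0.023 for Col6a1 and Col6a2, 0.47 to 0.53 for Col6a1 and Col6a3, and -0.44 to -0.13 for Col8a1 and Col8a2. With 8 arrays the 5 called pairs had adjusted exact p of 0.0514 or 0.0643, because fewer splits raise the smallest p. No paired analysis was made because the labels give no pairing of TAC and sham arrays. Signals over background are unknown for RMA values, so dim chains are the least certain.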
